A study of Mus musculus with 5 samples.

Results

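YAP target genes are the transcripts most often read as the output of the Hippo pathway. In that pathway a kinase cascade of MST (Stk3, Stk4) and LATS kinases keeps the co-activators YAP (Yap1) and TAZ (Wwtr1) out of the nucleus. When the cascade is quiet, YAP and TAZ bind TEAD transcription factors and switch on genes of matrix, adhesion, growth and feedback inhibition. In the lens, YAP is known for its part in the proliferating epithelium that covers the front of the fibre mass. The genes described here are Ccn1, Ccn2, Ankrd1, Axl, Crim1, Fjx1, Ccdc80, Ptpn14, Myof and Nuak2, chosen by symbol because they are widely used YAP/TEAD targets. All 10 were found, each once, among 22183 genes in the deposited table, and all 10 passed the filter on low counts that left 11724 genes for testing.

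The data are poly(A) RNA-seq of whole lenses from 14-day-old mice. The cKO group (2 libraries) came from Yap1 f/f;Cre or Yap1 f/+;Cre mice, and the Ctrl group (3 libraries) from littermates that carried the floxed allele (Yap1 f/f or Yap1 f/+) and looked normal; the genotype label of these controls reads WT. Every library was made from a pool of 4 to 6 lenses, so each pool mixes animals and can mix homozygous with heterozygous floxed alleles. The cKO lenses were taken by their severe eye phenotype rather than by genotype, and no source used here names the Cre driver. In whole lenses, fewer cells of a type and less RNA per cell cannot be told apart.

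Libraries held 22047553 to 25762805 expected counts. Lens fibre markers (12 of 12 detected) summed to 156400 to 210200 CPM (counts relative to the TMM-scaled library total) in cKO and 163600 to 182900 CPM in Ctrl, mostly from Cryba1 and Crybb1, so the tissue label fits both groups. Of these 12, 0 were called higher and 2 lower (Lgsn, log2 fold change −4.20, and Bfsp1, −1.34). Of 12 macrophage markers (8 tested), 7 were higher in cKO by the test used below, and the sum of all 12 was 120.1 and 31.58 CPM in cKO 1 and 2 against 1.464 to 3.201 CPM in Ctrl. Endothelial markers (10 genes, Erg at 0 in both cKO libraries) summed to 31.73 and 35.57 CPM in cKO and 16.45 to 23.8 CPM in Ctrl, with 0 called by edgeR (3 higher and 1 lower at an unadjusted p under 0.05, and 2 higher by DESeq2). Fibroblast and pericyte markers summed to 287.8 and 299.4 CPM in cKO and 187.4 to 248.0 CPM in Ctrl, mostly from Acta2 (233.7 and 247.9 CPM in cKO 1 and 2), with 1 called higher and 1 lower. The fibroblast markers Dcn and Lum had 275 and 28 counts in cKO 1 and 0 in cKO 2. The sum of the lens epithelium markers was 1367 and 2677 CPM in cKO 1 and 2, against 2148 to 2398 CPM in Ctrl, mostly from Dkk3 and Sfrp1. Of these 12 epithelium markers, 0 were called higher and 5 lower: Cdh1 (1 and 0 counts in cKO 1 and 2 against 440 to 986 in Ctrl), Pax6, Gja1, Npnt and Mab21l2. The Y-linked gene Ddx3y had 0 counts in both cKO libraries and 656 to 854 in Ctrl, so sex and genotype cannot be told apart. The labels call the pools biological replicates without saying whether they came from separate litters, so p-values measure the spread between these pools.

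Yap1 itself had 92 and 61 counts in cKO 1 and 2, against 155, 133 and 143 in Ctrl 1, 2 and 3. Both cKO libraries lay below all Ctrl libraries, but the log2 fold change of −1.08 (SE 0.33) did not pass (edgeR quasi-likelihood test, Benjamini-Hochberg adjusted p = 0.0759). It passed by DESeq2 (adjusted p = 0.0392) and with 1 cKO library left out (edgeR adjusted p = 0.00596 when cKO 1 was dropped and 0.0498 when cKO 2 was). Such fits on 1 cKO library, here and below, take its spread to be that of the controls. The counts cover the whole gene, so transcripts that lack the floxed part are included.

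YAP targets did not move as a block in the cKO lenses. Ccdc80 fell to 0.332 of its control level, Fjx1 rose 3.04-fold, and the other 8 genes did not pass the test. That is 1 gene higher and 1 lower of 10, where 5.76% and 7.73% of all tested genes were called higher and lower (13.5% in either direction). The median log2 fold change of the 10 genes was −0.15, against −0.06 over all 11724 genes. Groups without overlapping libraries were seen for 3 of the 10 genes (Ccn2 and Fjx1 with cKO above, Ccdc80 with cKO below), against 51.5% of all tested genes (22.8% with cKO above and 28.7% with cKO below). With 10 genes, 2 calls lie near the background share, and the count of genes without overlap lies below it.

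**Figure D1:**
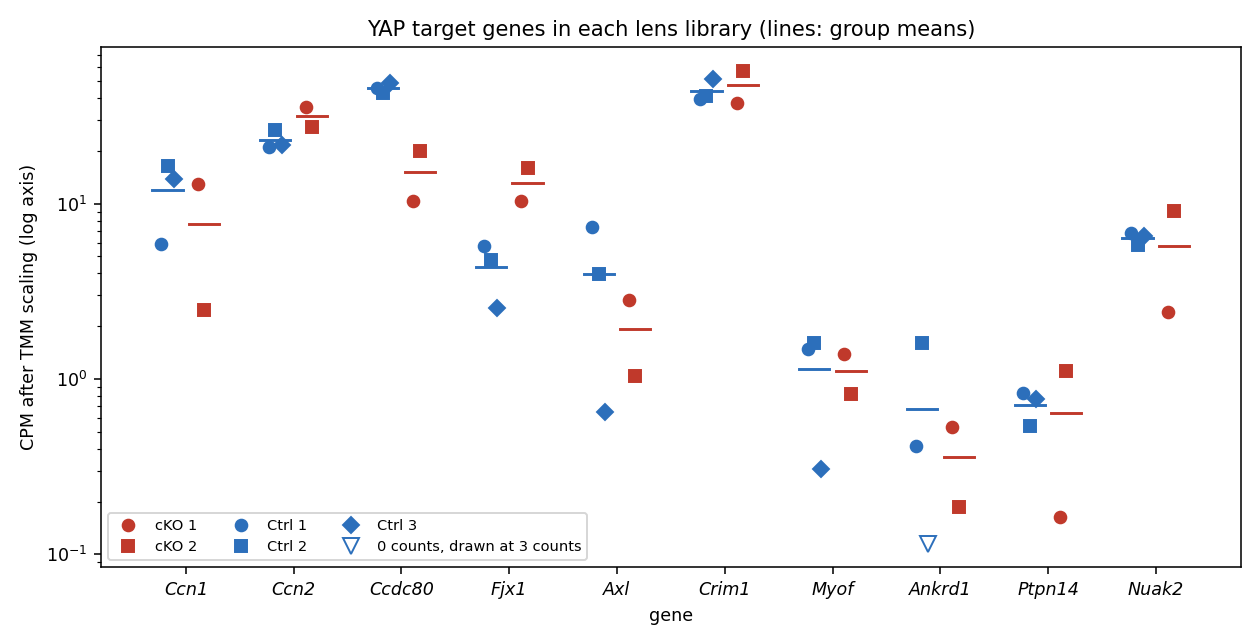
Abundance of the 10 YAP target genes in each library, in CPM after TMM scaling on a log axis; symbols are single libraries (pools of lenses), short lines are group means, and the open triangle is a library with 0 counts drawn at 3 counts. Fjx1 and Ccn2 lie higher in both cKO libraries than in any Ctrl library and Ccdc80 lies lower, while the cKO libraries of Ccn1, Nuak2 and Ptpn14 stand far apart.

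TEAD factors, through which YAP reaches DNA, are known to bind a sequence whose core is GGAATG. The printed strand can also show its reverse complement, CATTCC. RefSeq promoter windows (build GRCm38.p6, not the GRCm39 build named for the expression table) were matched by symbol for 6 of the 10 genes: Ankrd1, Axl, Ccn1, Crim1, Myof and Ptpn14. In the 250 bases before the annotated start, 5 of these 6 held GGAATG on either strand, against 12.6% of 32851 windows of that length. Of 9 matched windows among other YAP/TEAD targets, 1 (Amotl2) held it. The 5 windows are shown because they hold the core, each 5′ to 3′ on the strand of its gene, with the core in capitals.
Ccn1: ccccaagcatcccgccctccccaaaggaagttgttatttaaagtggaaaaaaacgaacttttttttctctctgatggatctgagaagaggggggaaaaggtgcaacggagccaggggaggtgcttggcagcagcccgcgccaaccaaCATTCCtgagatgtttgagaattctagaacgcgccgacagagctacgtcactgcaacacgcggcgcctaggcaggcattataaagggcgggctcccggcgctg
Ankrd1: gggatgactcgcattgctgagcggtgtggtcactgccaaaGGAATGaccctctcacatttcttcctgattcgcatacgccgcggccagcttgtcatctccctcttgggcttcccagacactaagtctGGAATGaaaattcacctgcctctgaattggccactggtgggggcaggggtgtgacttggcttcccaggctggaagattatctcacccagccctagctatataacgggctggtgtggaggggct
Axl: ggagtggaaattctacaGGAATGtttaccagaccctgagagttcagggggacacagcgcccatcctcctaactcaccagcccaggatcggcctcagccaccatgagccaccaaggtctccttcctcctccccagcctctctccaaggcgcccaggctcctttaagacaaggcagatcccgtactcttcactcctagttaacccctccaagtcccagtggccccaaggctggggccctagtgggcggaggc
Crim1: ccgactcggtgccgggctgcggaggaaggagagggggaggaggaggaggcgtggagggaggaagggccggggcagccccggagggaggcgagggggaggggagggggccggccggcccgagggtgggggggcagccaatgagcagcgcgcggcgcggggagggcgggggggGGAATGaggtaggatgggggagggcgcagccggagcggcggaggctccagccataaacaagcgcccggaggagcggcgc
Ptpn14: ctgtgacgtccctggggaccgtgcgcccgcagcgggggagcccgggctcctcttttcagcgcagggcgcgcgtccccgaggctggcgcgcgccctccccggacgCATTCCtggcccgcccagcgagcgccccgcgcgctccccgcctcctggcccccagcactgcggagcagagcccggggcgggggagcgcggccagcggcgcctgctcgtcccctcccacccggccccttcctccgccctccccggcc

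The windows lie at chr3:145649986-145650235 (Ccn1, minus strand), chr19:36119845-36120094 (Ankrd1, minus strand), chr7:25788734-25788983 (Axl, minus strand), chr17:78199998-78200247 (Crim1, plus strand) and chr1:189728018-189728267 (Ptpn14, plus strand). The core begins 103 bases before the start in Ccn1, 210 and 123 bases before it in Ankrd1, 233 in Axl, 79 in Crim1 and 146 in Ptpn14. Base composition differed widely among them, from 54.8% G and C in Ccn1 to 80.8% in Ptpn14. The window of Myof (42.8% G and C) has no such core in these 250 bases. TGANTCA, where N is any base, takes in the core that AP-1 factors are known to bind but is wider than it. This pattern was found in 0 of the 6 windows, in 1 of the 9 of other targets (F3) and in 6.7% of all windows.

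Among the secreted and matrix-associated proteins, Ccn1 and Ccn2 are the classical readouts; both encode CCN-family matricellular proteins that modulate integrin and growth factor signalling. Ccn1 had 12.9 and 2.46 CPM in cKO 1 and 2, against 5.89, 16.4 and 13.8 CPM in Ctrl 1, 2 and 3. The groups overlapped: cKO 1 lay within the control range, and only cKO 2 lay below it. The log2 fold change of −0.65 (SE 0.73, 95% interval −2.41 to 1.11) did not pass (edgeR adjusted p = 0.585). Single libraries set this value, since it was −2.30 without cKO 1 (edgeR adjusted p = 0.0147) and 0.10 without cKO 2 (edgeR adjusted p = 0.879).

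Ccn2 had 35.4 and 27.5 CPM in cKO 1 and 2, against 21.1, 26.4 and 21.7 CPM in Ctrl 1, 2 and 3. Both cKO libraries lay above the controls, cKO 2 by a narrow margin over Ctrl 2. The fold of 1.36 (95% interval 0.998 to 1.86; log2 fold change 0.45, SE 0.19) did not pass (edgeR adjusted p = 0.157). It passed only without cKO 2 (0.62, edgeR adjusted p = 0.0236), and was 0.24 without cKO 1 (edgeR adjusted p = 0.306). The ratio of Ccn2 to Ccn1 per length (FPKM, counts scaled to transcript length and library size) was 2.31 and 9.39 in cKO 1 and 2, against 3.02, 1.36 and 1.32 in Ctrl 1, 2 and 3. The ratio in cKO 1 lay inside the control range, and that in cKO 2 lay above it. The margin of Ccn2 itself depended on the scaling. By FPKM, which has no TMM scaling, cKO 2 had 13.5 against 10.2 in Ctrl 2. With total-count scaling in place of TMM, the log2 fold change of Ccn2 was 0.65 (edgeR adjusted p = 0.0538). Of the other CCN genes, Ccn3 to Ccn6, none had more than 13 counts in any library.

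Ccdc80, which encodes a secreted matrix protein, was the gene that fell. It had 10.4 and 19.9 CPM in cKO 1 and 2, against 45.4, 42.5 and 48.7 CPM in Ctrl 1, 2 and 3. The controls were tight and both cKO libraries lay far below them. Its mean was 15.1 ± 6.70 CPM in cKO (SD, n = 2) and 45.5 ± 3.09 CPM in Ctrl (SD, n = 3). On the log2 scale this is −1.59 with an SE of 0.29 (edgeR adjusted p = 0.0244). The change was −2.13 to −1.21 over all alternatives tried, but the call was lost with any Ctrl library left out (edgeR adjusted p = 0.11, 0.119 and 0.11 without Ctrl 1, 2 and 3). The lens epithelium markers (5 of 12 lower) and fibre markers (2 of 12 lower) also held genes that fell, and their part in the Ccdc80 level was not tested.

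Fjx1, the mammalian relative of the fly gene four-jointed, whose secreted product acts in tissue growth and polarity, went the opposite way. It had 10.3 and 16.1 CPM in cKO 1 and 2, against 5.71, 4.78 and 2.53 CPM in Ctrl 1, 2 and 3. Every cKO library exceeded every Ctrl library, with cKO 2 the higher of the cKO pair. Its mean was 13.2 ± 4.07 CPM in cKO (SD, n = 2) and 4.34 ± 1.63 CPM in Ctrl (SD, n = 3). On the log2 scale this is 1.60 with an SE of 0.39 (edgeR adjusted p = 0.0451). This call was near the threshold and was lost without Ctrl 1, 2 or 3 (edgeR adjusted p = 0.111, 0.159 and 0.11), although the log2 fold change stayed between 1.25 and 1.89 in all alternatives. The summed macrophage, endothelial, fibroblast and pericyte, and cornea markers were also greater in both cKO libraries than in any Ctrl library. Of the macrophage genes 7 were called, of the endothelial genes 0. The fibroblast and pericyte list and the cornea list each had 1 gene called higher and 1 lower. Macrophage (120.1 against 31.58 CPM) and endothelial sums (35.57 against 31.73 CPM) were greater in cKO 1 than in cKO 2. Fibroblast and pericyte (287.8 against 299.4 CPM, mostly from Acta2) and cornea sums (128.5 against 170.7 CPM, all from Aqp5) were smaller in cKO 1. Genes of the fibroblast and pericyte list went both ways. Dcn had 11.2 and 0 CPM in cKO 1 and 2, and Col1a1 had 2.70 and 4.73 CPM. The part of other cells in the Fjx1 level was not tested.

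The membrane proteins did not pass. Crim1, a transmembrane protein that binds BMPs and is needed for lens development, had 37.7 and 57.0 CPM in cKO 1 and 2, against 39.4, 40.9 and 51.3 CPM in Ctrl 1, 2 and 3. One cKO library lay below and the other above all controls. Its fold of 1.08 had a 95% interval of 0.740 to 1.57 (edgeR adjusted p = 0.781), which does not include folds as far from 1 as those of Ccdc80 or Fjx1. Its log2 fold change was 0.36 without cKO 1 and −0.22 without cKO 2.

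Axl, a receptor tyrosine kinase for Gas6, had 2.82 and 1.04 CPM in cKO 1 and 2, against 7.33, 3.95 and 0.653 CPM in Ctrl 1, 2 and 3. The controls alone spanned 11.2-fold, and both cKO libraries lay inside that span. The log2 fold change of −1.04 (SE 0.96) did not pass (edgeR adjusted p = 0.503), and it was −0.22 without Ctrl 1 and −1.51 without Ctrl 3.

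Myof, a ferlin that acts in membrane repair and fusion, had 34 and 22 counts in cKO 1 and 2, against 32, 33 and 8 counts in Ctrl 1, 2 and 3. The groups overlapped and Ctrl 3 was the lowest library. The log2 fold change of −0.03 (SE 0.81) had a 95% interval from −1.99 to 1.93, so neither a 3-fold rise nor a 3-fold fall could be told from no change at this depth (edgeR adjusted p = 0.986).

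The intracellular proteins did not pass either. Ankrd1, an ankyrin-repeat cofactor best known from heart and skeletal muscle, had 13 and 5 counts in cKO 1 and 2, against 9, 33 and 0 counts in Ctrl 1, 2 and 3. The Ctrl libraries alone ran from 0 to the highest value of all 5, where 0 counts allow up to 0.115 CPM in Ctrl 3. The log2 fold change of −0.90 (SE 1.57) carried no call (edgeR adjusted p = 0.741). No library held more than 33 counts of Ankrd1.

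Nuak2, an AMPK-related kinase that feeds forward on YAP through the actin skeleton, had 2.41 and 9.13 CPM in cKO 1 and 2, against 6.82, 5.81 and 6.53 CPM in Ctrl 1, 2 and 3. The controls lay within 1.17-fold of each other, with cKO 1 below and cKO 2 above all of them. The log2 fold change of −0.14 (SE 0.53) did not pass (edgeR adjusted p = 0.879). Leaving out cKO 2 gave −1.40 (edgeR adjusted p = 0.00531), and leaving out cKO 1 gave 0.50 (edgeR adjusted p = 0.0969).

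Ptpn14, a phosphatase that binds YAP and holds it in the cytoplasm, had the lowest mean of the 10 per length in both groups. In cKO 2 it stood above Ankrd1 (0.279 against 0.121 FPKM), and in Ctrl 3 Ankrd1 was listed at 0. It had 4 and 30 counts in cKO 1 and 2, against 18, 11 and 20 counts in Ctrl 1, 2 and 3. As with Nuak2, cKO 1 was the lowest and cKO 2 the highest library. The log2 fold change of −0.15 (SE 0.90) did not pass (edgeR adjusted p = 0.931), and it was 0.63 without cKO 1 and −2.09 without cKO 2.

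**Figure D2:**
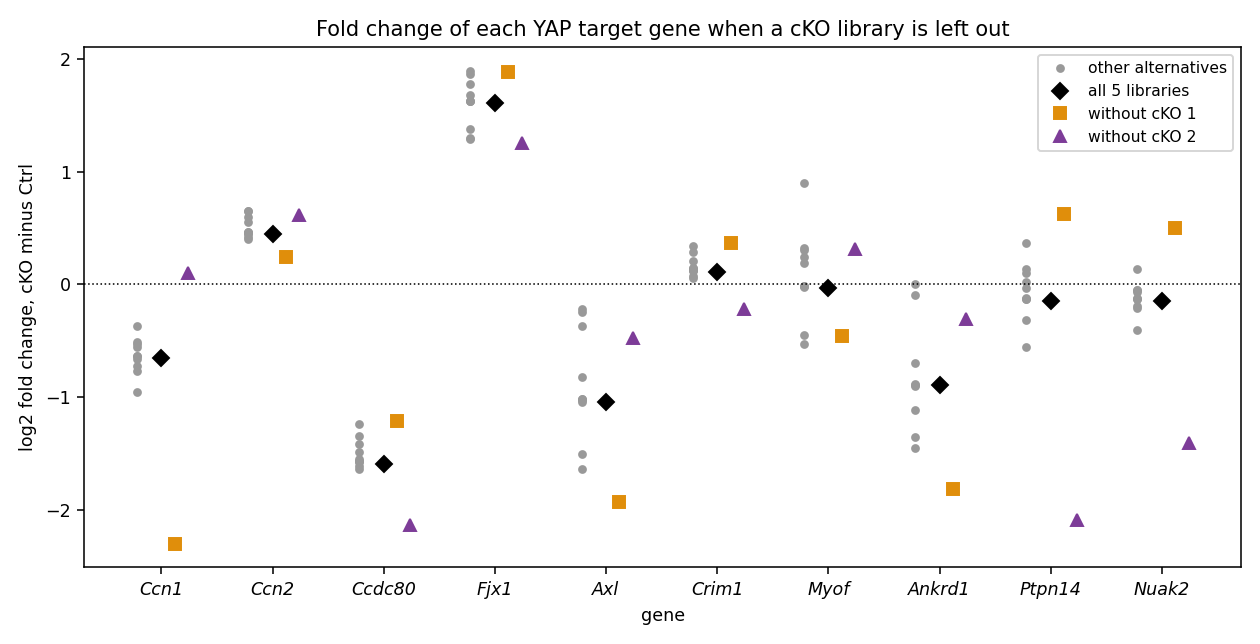
Log2 fold change (cKO minus Ctrl) of each YAP target gene with all 5 libraries (black), without cKO 1 (orange squares), without cKO 2 (purple triangles) and under the other alternatives (grey). Ccdc80 stays below 0 and Fjx1 and Ccn2 above it throughout, whereas Ccn1, Crim1, Myof, Ptpn14 and Nuak2 change sign with the cKO library that is left out.

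For several targets the cKO libraries differed widely from each other. Ccn1 was 5.23-fold and Axl 2.70-fold higher in cKO 1 than in cKO 2, although Axl spanned 11.2-fold among the Ctrl libraries. Ptpn14 was 6.84-fold, Nuak2 3.79-fold and Ccdc80 1.91-fold higher in cKO 2. Of the 7 targets with a mean count of at least 50, 2 (Ccn1 and Nuak2) differed 3-fold or more between the cKO libraries, where 10.2% of 8550 genes of that depth did so. Among the Ctrl libraries 1 of the 7 (Axl) and 1.63% of those genes did. The typical gene of that depth differed 1.39-fold between the cKO libraries and 1.25-fold from the highest to the lowest Ctrl library. The YAP targets that differed most between the cKO pools did so in opposite directions, so no single scaling factor aligns them.

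Per length, the control lens held most of these transcripts at low to middling levels. In Ctrl, Ccdc80 (11.7 ± 1.47 FPKM, SD, n = 3) came first, followed by Crim1 (10.2 ± 2.89 FPKM), Ccn2 (9.06 ± 1.20 FPKM) and Ccn1 (5.68 ± 2.68 FPKM). Ranges of the first 3 overlapped in neighbouring pairs, and Ccn1 lay below Ccn2 in every library. Nuak2 (1.95 ± 0.197 FPKM) lay below Ccn1 and above Fjx1 (1.29 ± 0.419 FPKM), each without overlap. Fjx1, Axl (0.850 ± 0.690 FPKM), Ankrd1 (0.308 ± 0.386 FPKM) and Myof (0.297 ± 0.134 FPKM) overlapped with their neighbours in that order, and Ptpn14 (0.0623 ± 0.0142 FPKM) had the lowest mean and overlapped with Ankrd1. Ranked by FPKM in Ctrl among 11724 tested genes, Ccdc80 stood at 1992, Ccn2 at 2396 and Ptpn14 at 11538.

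The order in cKO was different at the top. Ccn2 (14.2 ± 0.929 FPKM, SD, n = 2) and Crim1 (12.2 ± 7.62 FPKM) overlapped with each other and lay above Fjx1 (4.69 ± 1.95 FPKM), which moved from the sixth place to the third. Fjx1, Ccdc80 (4.63 ± 2.52 FPKM), Ccn1 (3.93 ± 3.52 FPKM) and Nuak2 (2.14 ± 1.89 FPKM) overlapped in neighbouring pairs. Summed over the 10 genes, the level was 36.55 and 49.95 FPKM in cKO 1 and 2, against 34.74, 43.28 and 45.94 FPKM in Ctrl 1, 2 and 3. In CPM the sum was 113.9 and 135.1 in cKO 1 and 2, against 134.4, 144.5 and 146.2 in Ctrl 1, 2 and 3. Both sums overlapped between the groups, with the highest library in cKO by FPKM and in Ctrl by CPM, while its make-up differed in Ccdc80 and Fjx1.

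The expected counts and the FPKM values together give the transcript length that the authors' quantification used for a gene in each library. For Ccn1 (2.02 kb), Ccn2 (2.40 kb), Fjx1 (3.13 to 3.14 kb), Ccdc80 (3.67 to 3.70 kb) and Nuak2 (3.03 to 3.11 kb) this length was nearly the same in all 5 libraries. For these genes FPKM follows the unscaled counts per library total. It lacks the TMM scaling of the CPM values, so folds by FPKM and by CPM can still differ. Crim1 varied from 3.83 kb in cKO 2 and 3.91 to 4.65 kb in Ctrl to 5.55 kb in cKO 1. RSEM, which the submitters name, takes a gene's length as the mean over its isoforms weighted by their abundance. The longest pair of Crim1 transcripts in GENCODE M21, both coding, are 6.00 kb and 2.49 kb. Ptpn14 was at 10.8 to 11.0 kb in 4 libraries and at 4.74 kb in cKO 2, the library with the most counts of this gene. GENCODE M21 lists a Ptpn14 coding transcript of 10.75 kb and a retained-intron transcript of 3.81 kb, among others, and the deposited table does not say which one was used. Myof ran from 1.36 kb in cKO 2 to 4.10 kb in Ctrl 2, but on at most 34 counts. Among 6803 tested genes with a mean count of at least 100, the median ratio of the longest to the shortest value was 1.03, and 8.75% exceeded 1.4. The ratio was 1.45 for Crim1. It was 2.32 for Ptpn14 and 3.01 for Myof, but with at most 30 and 34 counts in a library these fall below that depth. The share of 8.75% is therefore no background for Ptpn14 and Myof. For these 3 genes, a comparison of FPKM between libraries mixes abundance with isoform length.

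**Figure D3:**
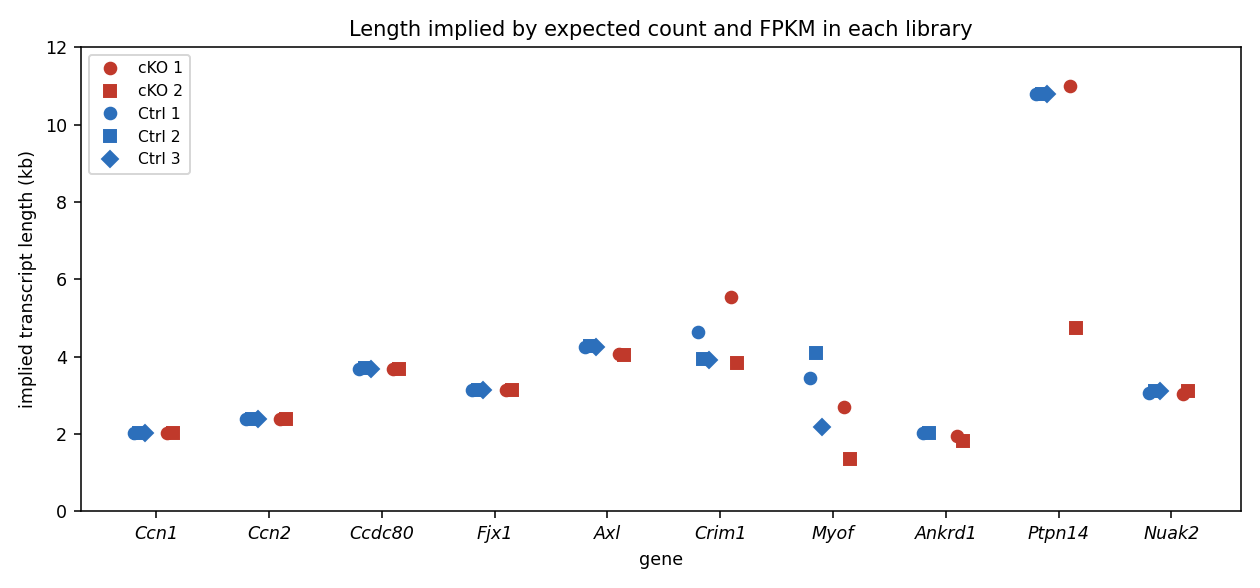
Transcript length in kilobases implied by the expected count, the FPKM value and the library total, for each YAP target gene in each library (Ankrd1 has no value in Ctrl 3, where its count is 0). The points coincide for Ccn1, Ccn2, Ccdc80 and Fjx1 and separate for Crim1, Myof and Ptpn14, where cKO 2 has 4.74 kb against 10.8 to 11.0 kb in the other libraries.

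A list of 12 other published YAP/TEAD target genes was compared for context. Of these 12 genes, 0 rose and 2 fell, namely Tgfb2 and Asap1 (0 and 4 at an unadjusted edgeR p under 0.05, and 0 and 4 by DESeq2), against 5.76% and 7.73% of all tested genes. Tgfb2, a TGF-beta ligand, had 17.6 and 23.4 CPM in cKO 1 and 2, against 43.8, 43.2 and 37.8 CPM in Ctrl 1, 2 and 3 (log2 fold change −1.02, SE 0.18, edgeR adjusted p = 0.0232). Asap1, a GTPase-activating protein for Arf that acts at adhesions, fell from 32.2 ± 2.95 CPM in Ctrl (SD, n = 3) to 17.6 ± 4.22 CPM in cKO (SD, n = 2), a difference of −0.87 in log2 with an SE of 0.20 (edgeR adjusted p = 0.0405). Gadd45a, a growth-arrest gene and the most abundant of the 12 per length in Ctrl (32.7 FPKM), had 63.3 and 10.1 CPM in cKO 1 and 2, against 35.6 to 47.8 CPM in Ctrl, with cKO 1 above and cKO 2 below the controls. The median log2 fold change of the 12 genes was −0.29, and 5 of the 12 had both cKO libraries below all controls (28.7% of all genes did) with 0 above.

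Among those 5 was F3, which encodes tissue factor and is named here because of its values. It had 0 counts in both cKO libraries and 25, 148 and 13 in Ctrl 1, 2 and 3. Against 3 counts in each cKO library the Ctrl mean of 2.96 CPM makes it at least 25.3-fold lower in cKO. This limit rests on Ctrl 2, without which it is 7.08-fold (left out after seeing the data), and with the wide control spread the test did not pass (edgeR adjusted p = 0.0615). Amotl2, also among those 5 and also named because of its values, had 23 and 68 counts in cKO 1 and 2, against 138, 115 and 151 in Ctrl 1, 2 and 3. Its log2 fold change of −1.77 (SE 0.46) did not pass (edgeR adjusted p = 0.0542). Over all 22 targets 1 gene rose and 3 fell, against 5.76% and 7.73% of all tested genes.

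**Figure D4:**
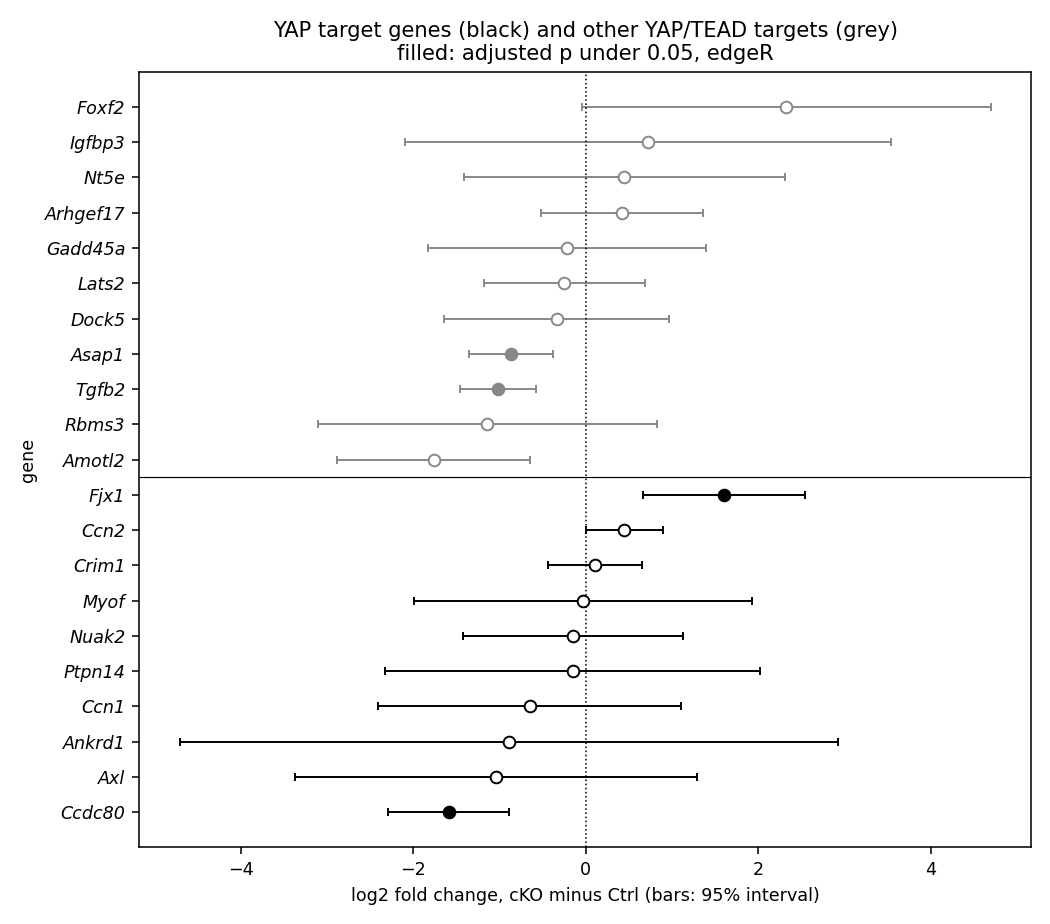
Log2 fold change (cKO minus Ctrl) with 95% intervals for the 10 YAP target genes (black, lower panel) and the other YAP/TEAD targets (grey, upper panel); filled points have an edgeR adjusted p under 0.05, and F3, with 0 counts in cKO, is not drawn. Ccdc80, Tgfb2 and Asap1 lie to the left and Fjx1 to the right of 0, and the intervals of Ankrd1 and Axl are the widest of the black points.

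Upstream of these targets, 1 of 19 tested YAP, TAZ, TEAD and Hippo genes rose and 3 fell, where 5.76% and 7.73% of all tested genes did. This list includes Yap1 itself, and it shares Amotl2 and Lats2 with the other targets above. At an unadjusted edgeR p under 0.05, 3 were higher and 8 lower, where 32.2% of all tested genes passed in either direction. By DESeq2 1 was higher and 7 lower, where 1209 and 1521 of all 11724 genes were. Tead1, which encodes a DNA-binding partner of YAP, rose from 1.62, 1.32 and 1.46 CPM in Ctrl 1, 2 and 3 to 5.47 and 7.82 CPM in cKO 1 and 2 (log2 fold change 2.18, SE 0.32, edgeR adjusted p = 0.0148). Wwtr1, which encodes TAZ, had 130 and 49 counts in cKO 1 and 2, against 25, 46 and 24 in Ctrl. Its log2 fold change of 1.31 (SE 0.62) did not pass (edgeR adjusted p = 0.203). The 3 genes that fell were Stk4, the MST1 kinase (−1.23, SE 0.29, edgeR adjusted p = 0.0446), Mob1a, a LATS cofactor (−1.43, SE 0.24, edgeR adjusted p = 0.0212) and Frmd6, an upstream FERM protein (−3.70, SE 0.29, edgeR adjusted p = 0.00373). The most abundant of these genes per length in Ctrl were Nf2, which encodes the upstream regulator merlin (−0.98, edgeR adjusted p = 0.0847), and Vgll4, which encodes a TEAD-binding repressor (0.10, edgeR adjusted p = 0.725); neither passed.

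Genes with the most similar pattern were sought among tested genes with a mean of at least 10 CPM, by the root mean square difference of centred log2 CPM over the 5 libraries. Ccdc80 had 36 genes within 0.25, of which Asph (0.0436), Lamb1 (0.0509) and Mypn (0.0529) were nearest, all 3 called lower. Lamb1, a laminin chain of basement membranes, had 8.58 and 16.1 CPM in cKO 1 and 2, against 35.6 to 37.2 CPM in Ctrl. Fjx1 had 1 gene within 0.25, Vegfb (0.195), followed by Anxa3 (0.251) and S100a6 (0.275), all 3 called higher. Vegfb, a VEGF-family ligand, had 19.0 and 21.7 CPM in cKO 1 and 2, against 8.68, 6.98 and 4.84 CPM in Ctrl 1, 2 and 3, which is the same order among controls as Fjx1. Ccn1 had no close neighbour (Lrrtm2 0.302, Dnase2b 0.454, Atl2 0.461). Ccn2 had 1228 of 4285 genes within 0.25, of which Ggnbp2 (0.0423), Scoc (0.0465) and Rabif (0.0513) were nearest, so its pattern was a common one. With 5 libraries, likeness of this kind is a description, and genes chosen for likeness to a called gene share its direction by that choice.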

How the data were processed

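For each gene and library the authors deposited an expected count, estimated from the reads and not scaled between libraries, and an FPKM value, scaled by the authors to length and library size, per the file headers. RSEM, Trimmomatic 0.18.0 and the build GRCm39 appear in the submitters' processing notes. No source used here gives the aligner, strand setting or annotation release. In a library 6.03 to 7.47% of expected counts were not whole. These expected counts were rounded, filtered with filterByExpr (minimum count 10, minimum total 15), scaled by TMM and tested with edgeR 4.0.16 (R 4.3.3; quasi-likelihood F test, 3 residual and 3.26 prior degrees of freedom), with Benjamini-Hochberg adjustment over 11724 genes. "Rose", "fell", "higher" and "lower" of a gene as a call mean an adjusted p under 0.05. SEs and 95% intervals derive from the F statistic. Deposited FPKM values served for levels between genes and, with 1 or 0.1 added, for limma 3.58.1. DESeq2 1.42.0 was an alternative. The fit was tested on simulated data.

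A count of 0 allows up to 3 counts, and this covers counting error only. For 20 symbols with several identifiers, only the most counted one was given the symbol. The targets, the related lists and the tests were chosen with earlier results of these data known. Genes were named by rule: all 10 targets, Yap1 and Wwtr1, called and the 2 most abundant genes of each related list, and the 3 nearest patterns. F3 and Amotl2 were named for their values. Further lists covered pigment cells (6 markers, 2.644 and 4.574 CPM in cKO, 7.423 to 10.1 CPM in Ctrl, 0 called by edgeR, 3 lower at an unadjusted p under 0.05 and 2 lower by DESeq2) and cornea (Krt12, Krt5 and Krt14 at 0 in all libraries; Aqp5 higher and Aldh3a1 lower). A list of retinal markers is not reported here.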

Additional observations from a re-analysis of the deposited data

How the results depend on the processing

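Calls rested on few pools. All genes called higher numbered 675 in the reported fit and 1234 with total-count scaling, 1209 with DESeq2, 1380 with limma on log2(FPKM + 1) and 1402 with 0.1 added; lower genes numbered 906, and 1521 with DESeq2. Total-count scaling moved the median log2 fold change of all genes from −0.06 to 0.16 and gave 717 lower genes. With 1 library left out, higher genes ranged from 6 to 2197 and lower genes from 15 to 2964, the low end without Ctrl 2 and the high end without cKO 2. Target genes called higher ranged from 0 to 2 and lower from 0 to 2, with 0 and 0 without any 1 Ctrl library. Replicate numbers are shared by the groups, but nothing says that they pair the pools. Deviations from the group mean correlated at 0.11 for pair 1 and −0.08 for pair 2. With 2 cKO libraries these deviations mirror each other, so the correlations cannot show whether the pools pair. With the replicate block 68 genes were higher and 107 lower, and 0 target genes were higher and 0 lower. The cause of these differences was not tested. Log2 fold changes ended on the other side of 0 with total-count scaling for Nuak2 (0.13), Ptpn14 (0.14) and Myof (0.19), and with FPKM + 1 and FPKM + 0.1 for Ptpn14 (0.10 and 0.37) and Myof (0.32 and 0.90). With 1 library left out they ran from −2.30 to 0.10 for Ccn1, from −0.22 to 0.36 for Crim1, from −1.40 to 0.50 for Nuak2, from −2.09 to 0.63 for Ptpn14 (0.02 without Ctrl 1) and from −0.46 to 0.31 for Myof (0.24 and 0.30 without Ctrl 1 and 2), with the extremes at the cKO libraries. Of 131 values for the 10 targets and Yap1, 102 kept direction and side of the threshold. Ankrd1 gave no value without Ctrl 2, where it failed the count filter.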
